A study of Mus musculus with 9 samples.

Results

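The genes described here were the solute carriers and ABC transporters of piriform cortex that belong to families known for traffic across the brain's barriers. They were taken by name. Every protein-coding mouse gene named Slc2a, Slc7a, Slc13a, Slc16a, Slc22a, Slc38a, Slc47a or Slco, or Abca, Abcb, Abcc or Abcg with a number, was included, which gave 141 genes, 99 solute carriers and 42 ABC transporters. Each gene was represented by its transcript with the highest mean count, and 94 of the 141 genes, 64 solute carriers and 30 ABC transporters, had at least 10 counts in at least 3 of the 9 samples and entered the tests. The other 47 did not, and 17 of these had no count in any sample. Just inside the limit, with 3 samples at 10 counts or more, were Abca12, Abca17, Slc22a21, Slc47a1 and Slco4a1, and just outside, with 2 such samples, were Abcc6, Slc16a3, Slc22a2, Slc2a4 and Slc2a9. The highest single count among those just outside was 43, for Slc16a3 in layer C replicate 3. For 8 of the 94 the counted transcript is not annotated as protein-coding, and for 32 another transcript had a mean count within 10% of it, so counts cannot be given to one isoform. In 10 of the 94, fewer than 3 samples outside layer A reached 10 counts, so these genes entered with the help of layer A. For Slc47a1 no sample outside layer A did, and its direction was fixed by the filter. One gene, Slc7a6os, fits the naming rule by its symbol but encodes no carrier. It lies beside Slc7a6.

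Brain capillaries are sealed by tight junctions, so glucose, amino acids, lactate and hormones enter through carriers of the SLC families, while ABC pumps, which spend ATP, return drugs and metabolites to the blood. The arachnoid, the barrier layer of the leptomeninges that cover the cortical surface, has its own organic anion, sulfate and cation carriers. Other members of the same families serve neurons and glia, and several sit in lysosomes or mitochondria, so the naming rule collects transporters of many sites and not only those of barriers.

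RNA was taken from 3 layers of piriform cortex, the olfactory cortex, of wild-type C57BL/6 mice by laser-capture micro-dissection, with 3 samples of each layer. The sample labels give an age of 8 weeks, and the study's methods give another. The labels letter the layers A, B and C without a key to layers I, II and III, so the letters are kept here. No sample carried a transgene or a treatment, and the sources used here do not say whether the samples of a layer came from separate animals. The p-values therefore measure the spread between these samples, which may be technical.

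Each sample held between 23104306 and 76471683 counts, of which the 2 mitochondrial ribosomal RNAs took between 55.31% and 70.19% in layer A, between 12.8% and 28.15% in layer B and between 20.48% and 57.11% in layer C. Levels are given as CPM, the usual depth-scaled count, after a correction for composition, and 3 counts, a floor for detection, stood for between 0.0255 and 0.254 CPM. Layer B replicate 3 stood apart, with correlations of 0.917 and 0.909 across transcripts with the other samples of its layer, which correlated with each other at 0.989. With the layer C samples it correlated at 0.938, 0.926 and 0.948, more closely than with its own layer. Layer B replicates 1 and 2 correlated with layer C replicate 1 at 0.973 and 0.974. In bulk tissue of this kind, fewer cells of a type and less RNA per cell cannot be told apart. Markers of glutamatergic neurons were found in every sample, with summed levels between 2300 and 4220 CPM in layer A, 1070 and 1210 CPM in layer B and 1060 and 1630 CPM in layer C. Most of this sum was Camk2a.

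Most of the transporters that differed between layer A and another layer were higher in layer A. Between layers A and B, 38 of the 94 transporters passed the test, 33 of them higher in layer A and 5 lower. Without layer B replicate 3, 42 passed, and the 5 lower ones fell to 2 without layer B replicate 1 and to 3 without layer A replicate 1. The test was edgeR's quasi-likelihood F-test on counts with Benjamini-Hochberg adjustment over all 56416 transcripts, and all adjusted p-values below come from it. The same threshold, an adjusted p under 0.05, was passed by 16.5% of all tested transcripts and by 22.3% of the highest transcripts of protein-coding genes, against 40.4% of the transporters. Genes higher in layer A made up 35.1% of the transporters against 14.1% of those protein-coding genes, and genes lower in layer A made up 5.32% against 8.24%. The median log2 fold change of the transporters was 0.55, against -0.16 for the highest transcripts of protein-coding genes. Among the 84 that met the filter without the help of layer A, 26 were higher and 5 lower, with a median of 0.18. The values of the layers did not overlap for 40 transporters that were higher and 20 that were lower in layer A, where 20.3% and 19.6% of protein-coding genes separated in these directions.

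Between layers A and C, 34 transporters passed, 30 higher in layer A and 4 lower. The background was 11.3% of all transcripts and 16.0% of protein-coding genes, against 36.2% of the transporters. Those higher in layer A made up 31.9% against 10.1%, and those lower 4.26% against 5.93%. The median of the transporters was 0.64 on the log2 scale, against -0.03, and among the 84 it was 0.49, with 25 higher and 4 lower. Layers A and C did not overlap for 41 transporters that were higher in layer A and 13 that were lower, where the background was 20.2% and 17.4%. The count of 34 depended in part on single libraries. Without layer C replicate 1, 16 transporters passed, all higher in layer A, and calls among all 56416 transcripts fell from 6389 to 1365. Without layer B replicate 3, 43 transporters passed, and calls among all transcripts rose to 9751. Both comparisons use the same layer A samples and are therefore not independent of each other. Between layers B and C no transporter passed edgeR's test, nor did any of the 56416 transcripts (0.0%), of which DESeq2 called 124. Of the 94, 12 had an unadjusted p under 0.05, where the background was 5.06% of protein-coding genes, and DESeq2 called none. In the test of all 3 layers at once 40 transporters passed, where the background was 14.3% of transcripts and 19.8% of protein-coding genes.

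**Figure D1:**
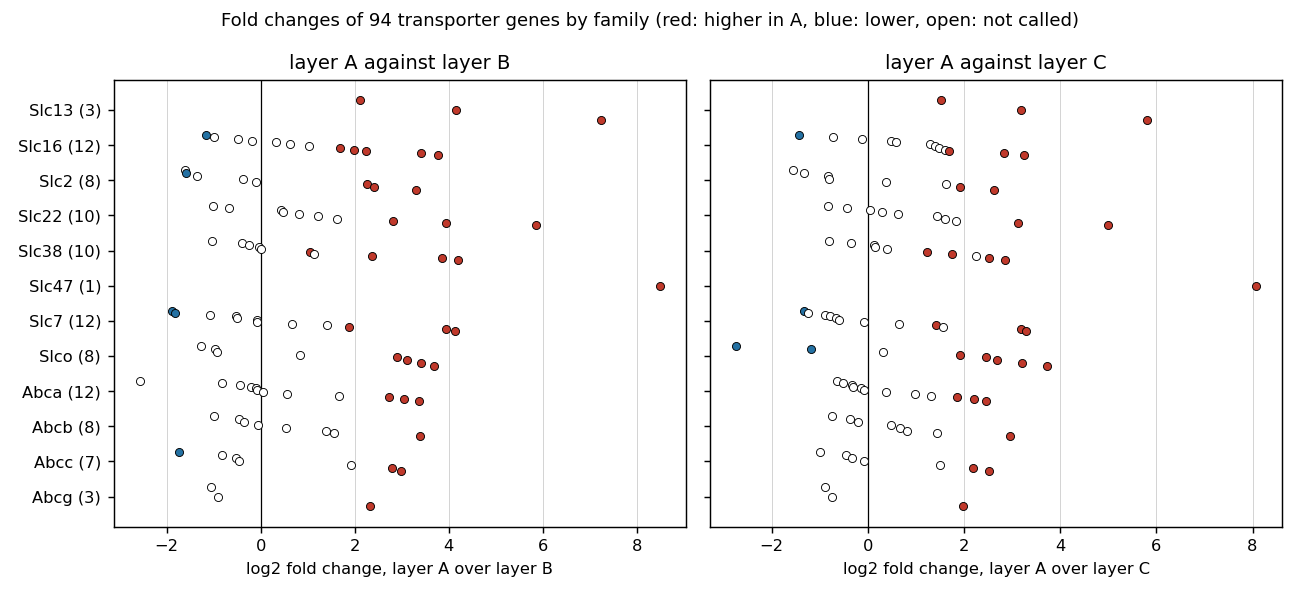
Log2 fold changes (x axis) of the 94 transporters that entered the tests, arranged by family (y axis, number of genes in brackets), for layer A over layer B on the left and over layer C on the right. Red points passed as higher in layer A (33 and 30 genes), blue points passed as lower (5 and 4) and open points did not pass. The single Slc47 point, farthest to the right, is Slc47a1, which had at most 2 counts in any sample outside layer A, so that its fitted value is no measure of size.

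The number of members that passed varied by family, and differences between families were not tested. All 3 tested Slc13 carriers of dicarboxylates, citrate and sulfate were higher in layer A than both other layers. Of 8 Slco organic anion transporters, 4 were higher than in layer B, and 5 were higher and 2 lower than in layer C. Of 12 Slc16 monocarboxylate transporters, 5 were higher and 1 was lower than in layer B, and 3 were higher and 1 was lower than in layer C. Of 12 Slc7 genes, mostly amino acid transporters, 3 were higher and 2 lower than in layer B, and 3 were higher and 1 was lower than in layer C. Of 8 Slc2 glucose and polyol transporters, 3 were higher and 1 was lower than in layer B, and 2 were higher than in layer C. Of 10 Slc22 organic ion transporters, 3 were higher than in layer B and 2 than in layer C, and of 10 Slc38 amino acid transporters 4 were higher in each comparison. Among the ABC families, 3 of 12 Abca, 1 of 8 Abcb, 2 of 7 Abcc and 1 of 3 Abcg genes were higher than in layer B, and the same numbers were higher than in layer C. One Abcc gene, Abcc8, was lower than in layer B. Among protein-coding genes, 14.1% were higher and 8.24% lower than in layer B, and 10.1% were higher and 5.93% lower than in layer C. The Abcb share, 12.5% higher in both comparisons, was near that background. Slc13a4, Slc22a6, Slc22a12, Slc38a5, Slc38a11 and Slco4a1, all counted here, met the filter only with the help of layer A. Several of these counts depended on single libraries. Without layer C replicate 1, those higher than in layer C fell to 2 for Slco, to 1 each for Slc16, Slc38, Slc2 and Abcc and to 0 for Abcg, and no member of any family was lower. Among all 56416 transcripts, calls between layers A and C likewise fell from 6389 to 1365 without layer C replicate 1. The Slc38 count over layer C was also 2 without layer A replicate 1 or 3. Without layer B replicate 1, the Slc16 genes higher than in layer B fell to 3. Without layer B replicate 3, the Slc7 genes higher than in layer B rose to 5 and the Slc16 genes higher than in layer C to 6. The counts of lower genes, other than that of Slc7 over layer B, each fell to 0 without at least one sample.

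The carriers that feed the brain through its capillaries were led by Slc2a1 (GLUT1), which brings glucose across the endothelium. Levels of Slc2a1 were 125, 124 and 138 CPM in layer A, 20.5, 19.5 and 32.5 in layer B and 31.8, 30.7 and 40.7 in layer C. Every layer A sample was above every sample of the other layers, and the log2 fold change was 2.41 ± 0.30 (SE, edgeR adjusted p = 0.000233) over layer B and 1.91 ± 0.29 (SE, edgeR adjusted p = 0.00235) over layer C. The gene lies on chromosome 4 of GRCm38, from 119108711 to 119137983 on the plus strand. Slc7a5 (LAT1), the carrier of large neutral amino acids and L-DOPA, was also higher. Levels of Slc7a5 were 28.1, 43 and 25.6 CPM in layer A, 9.84, 8.57 and 7.89 in layer B and 11.5, 11.4 and 13.1 in layer C. All layer A samples lay above the rest, with a change of 1.88 ± 0.31 (SE, edgeR adjusted p = 0.00099) over layer B. Its difference from layer C, 1.42 ± 0.30 (SE, edgeR adjusted p = 0.00923), did not pass without layer A replicate 2 (edgeR adjusted p = 0.0509) or without layer C replicate 1 (0.0672). Slc16a1 (MCT1), which carries lactate and ketone bodies, showed the same separation of layer A. Levels of Slc16a1 were 14.9, 16 and 10 CPM in layer A, 2.65, 1.8 and 4.23 in layer B and 3.53, 3.44 and 5.65 in layer C. The log2 fold change was 2.23 ± 0.40 (SE, edgeR adjusted p = 0.00183) over layer B and 1.68 ± 0.40 (SE, edgeR adjusted p = 0.0144) over layer C, the latter lost without any one of 4 samples (edgeR adjusted p between 0.0528 and 0.0976 without layer A replicate 1 or 2 or layer C replicate 1 or 2).

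Slco1c1 (OATP1C1), which carries thyroxine into endothelium and astrocytes, and Slco1a4 (OATP1A4), an organic anion carrier of the same capillaries, were higher too. Levels of Slco1a4 were 62.5, 55.2 and 56.5 CPM in layer A, 3.05, 3.33 and 9.97 in layer B and 4.96, 11 and 11.2 in layer C. For Slco1a4 the log2 fold change was 3.41 ± 0.47 (SE, edgeR adjusted p = 0.000336) over layer B and 2.69 ± 0.46 (SE, edgeR adjusted p = 0.00331) over layer C. Layer B replicate 3 held about the layer C level of this transcript, above the other samples of its layer. For Slco1c1 the change was 2.90 ± 0.46 (SE, edgeR adjusted p = 0.000825) over layer B and 2.46 ± 0.45 (SE, edgeR adjusted p = 0.00463) over layer C. Both genes lie on chromosome 6 and have close relatives in the Slco1 family, and how the authors counted reads shared by such copies is not given in the sources used here. Slc38a5 (SNAT5), a glutamine carrier, was scarce, with 12, 10 and 83 counts in layer A, 3, 0 and 9 in layer B and 2, 2 and 35 in layer C. The change was 3.84 ± 0.94 (SE, edgeR adjusted p = 0.0113) over layer B and 2.86 ± 0.89 (SE, edgeR adjusted p = 0.0498) over layer C. The call over layer B was lost without layer A replicate 3 (edgeR adjusted p = 0.0672), and the call over layer C was lost without any one of 6 samples (edgeR adjusted p between 0.0561 and 0.213). The call over layer C was also lost with other size factors (RLE, edgeR adjusted p = 0.0501) and when scaled by non-mitochondrial totals (0.0525).

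The efflux pumps of the blood-brain barrier separated the layers in the same direction. Abcb1a encodes P-glycoprotein, the pump that keeps many drugs out of the brain. Levels of Abcb1a were 21.3, 17.8 and 11.6 CPM in layer A, 1.08, 0.877 and 2.85 in layer B and 1.3, 2.23 and 2.96 in layer C. All 3 samples of layer A were above all 6 others, and the log2 fold change was 3.39 ± 0.50 (SE, edgeR adjusted p = 0.000537) over layer B and 2.95 ± 0.49 (SE, edgeR adjusted p = 0.00298) over layer C. Abcg2 (BCRP), the other main drug pump of capillaries, separated layer A as well. Levels of Abcg2 were 10.1, 10.2 and 8.48 CPM in layer A, 1.68, 1.57 and 2.52 in layer B and 2.31, 1.47 and 3.36 in layer C. All layer A samples lay above the rest, and the log2 fold change was 2.31 ± 0.40 (SE, edgeR adjusted p = 0.00139) over layer B and 1.98 ± 0.40 (SE, edgeR adjusted p = 0.00676) over layer C, the latter not passing without layer C replicate 1 (edgeR adjusted p = 0.0538). Abcc4 (MRP4), which exports organic anions and cyclic nucleotides, was higher by 2.79 ± 0.40 (SE, edgeR adjusted p = 0.000436) over layer B and by 2.52 ± 0.40 (SE, edgeR adjusted p = 0.0025) over layer C. Its layer A replicate 1 lay at 24.2 CPM, above replicates 2 and 3 at 11.2 and 10.8 CPM.

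The single gene of the 12 on the endothelial list that passed in neither comparison was Slc7a1 (CAT1), the carrier of arginine and lysine. Levels of Slc7a1 were 8.21, 10.6 and 12.6 CPM in layer A, 10.2, 9.14 and 13.7 in layer B and 10.9, 8.74 and 13.4 in layer C. The layers overlapped, with a log2 fold change of -0.07 ± 0.32 (SE, edgeR adjusted p = 0.917) over layer B. Slc16a4, a less studied member of the monocarboxylate family, was higher by 1.99 ± 0.48 (SE, edgeR adjusted p = 0.0104) over layer B, a call lost without layer B replicate 1 (edgeR adjusted p = 0.0512), and did not pass over layer C at 1.29 ± 0.47 (SE, edgeR adjusted p = 0.0974). In all, 11 of the 12 genes passed over layer B, and the list's median log2 fold change was 2.60, while 10 passed over layer C, with a median of 2.22. The background was 14.1% of protein-coding genes higher in the first comparison and 10.1% in the second. Without layer C replicate 1 the second count fell to 6 and the median was 2.09. Without layer B replicate 3 the counts were 11 and 11, and the log2 fold change over layer B rose to 4.15 for Abcb1a, 4.24 for Slco1a4, 3.73 for Slco1c1, 4.85 for Slc22a8 and 5.16 for Slc38a5. Slc38a5 met the filter only with the help of layer A, and over layer C its value was 3.99 without layer C replicate 3.

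Carriers known from the leptomeninges were also higher in layer A. Of the 9 genes on this list, which shares Slc22a8 with the endothelial list, 8 entered the tests. These 8 were higher in layer A than both other layers. However, Slc47a1, Slc13a4 and Slc22a6 met the filter only with the help of layer A. The other 5 had medians of 3.94 over layer B and 3.13 over layer C on the log2 scale. Without layer C replicate 1, 7 of the 8 passed over layer C. The background was 14.1% of protein-coding genes higher than in layer B and 10.1% higher than in layer C. Slc47a1 (MATE1), which exchanges organic cations for protons, had 38, 35 and 219 counts in layer A, 0, 0 and 1 counts in layer B and 0, 0 and 2 counts in layer C, so the 3 samples that passed it through the filter were those of layer A. Its ratio of summed scaled counts was 593 between layers A and B, with an exact 95% interval from 106 to 23500, and 379 between layers A and C, with an interval from 104 to 3150. These intervals cover counting error only, and they treat reads as independent, which amplified reads are not. The filter fixed the direction of both ratios, so the intervals are no test of it. The counted transcript is annotated as subject to nonsense-mediated decay, and another transcript of the gene had a mean count within 10% of it. Slc22a2 (OCT2), a further organic cation carrier, was left just outside the filter with 12, 7 and 20 counts in layer A and 0 in all 6 other samples.

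Slc13a4, a sodium-dependent sulfate carrier, was low outside layer A. Levels of Slc13a4 were 12.4, 9.02 and 25.9 CPM in layer A, 0.0449, 0.0693 and 0.187 in layer B and 0.0491, 0.0638 and 0.554 in layer C. The log2 fold change was 7.24 ± 0.83 (SE, edgeR adjusted p = 0.000196) over layer B and 5.81 ± 0.75 (SE, edgeR adjusted p = 0.00146) over layer C. The second value rests on layer C replicate 3, the highest sample outside layer A, and was 8.11 without it, while the first was 8.09 without layer B replicate 3. Slc13a4 stood at or under the floor of 3 counts in replicates 1 and 2 of layers B and C, so the size of both changes is uncertain. Its relative Slc13a3, a carrier of dicarboxylates, was at 11.1, 12.4 and 18.4 CPM in layer A, 0.629, 0.901 and 0.812 CPM in layer B and 1.67, 1.08 and 1.75 CPM in layer C. No sample of layers B and C came near the layer A range, and the change was 4.16 ± 0.41 (SE, edgeR adjusted p = 0.000118) over layer B and 3.19 ± 0.39 (SE, edgeR adjusted p = 0.000982) over layer C. The study had listed Slc13a3 and Slc22a8 among layer genes from these same samples, so their direction is not independent evidence. Slc7a11 (xCT), which takes up cystine in exchange for glutamate and which astrocytes also express, was among the most abundant of these carriers. Levels of Slc7a11 were 157, 124 and 75.4 CPM in layer A, 5.84, 5.63 and 11.6 in layer B and 12.6, 14.5 and 12.2 in layer C. The log2 fold change was 3.95 ± 0.39 (SE, edgeR adjusted p = 0.000118) over layer B and 3.18 ± 0.38 (SE, edgeR adjusted p = 0.000982) over layer C, with no overlap.

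A pair of organic anion transporters, Slc22a6 (OAT1) and Slc22a8 (OAT3), lie 6.2 kb apart on the plus strand of chromosome 19, Slc22a8 from 8591289 to 8611835 and Slc22a6 from 8618039 to 8628299. Levels of Slc22a6 were 9.74, 3.54 and 12.2 CPM in layer A, 0.0674, 0.0693 and 0.291 in layer B and 0.147, 0.319 and 0.332 in layer C. Levels of Slc22a8 were 21.9, 16.7 and 29.4 CPM in layer A, 0.606, 1.02 and 2.81 in layer B and 2.7, 2.3 and 2.77 in layer C. In both genes the lowest layer A sample stood above the highest sample of the other layers. The log2 fold change of Slc22a6 was 5.85 ± 0.68 (SE, edgeR adjusted p = 0.0002) over layer B and 4.98 ± 0.65 (SE, edgeR adjusted p = 0.00146) over layer C. For Slc22a8 it was 3.94 ± 0.51 (SE, edgeR adjusted p = 0.000267) over layer B and 3.13 ± 0.49 (SE, edgeR adjusted p = 0.00244) over layer C. Without any one sample, the log2 fold change of Slc22a6 over layer B lay between 5.49 and 6.95, and the call held in each case. However, Slc22a6 met the filter only with the help of layer A, and its layer B replicates 1 and 2 stood at the floor of 3 counts. The size of its change over layer B is therefore uncertain.

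Promoters of this pair, of Slc13a4 and of Slc7a14, the transporter with the smallest p among those lower in layer A, are shown because the pair lies side by side and both were higher in layer A, while the other two differed in opposite directions. Each is the 250 bases before the RefSeq start on GRCm38.p6, 5′ to 3′ on the gene's strand, with matches to any of 5 searched motifs in capitals. Both strands were searched. The GC box was spelled GGGCGG. The core of the xenobiotic response element was spelled GCGTG. For the antioxidant response element the letters were TGACNNNGC. The TATA box was spelled TATAAA. The core bound by ETS factors was spelled CCGGAA. No overlap between matches was seen in these windows.
Slc22a6, chr19:8617746-8617995, plus strand: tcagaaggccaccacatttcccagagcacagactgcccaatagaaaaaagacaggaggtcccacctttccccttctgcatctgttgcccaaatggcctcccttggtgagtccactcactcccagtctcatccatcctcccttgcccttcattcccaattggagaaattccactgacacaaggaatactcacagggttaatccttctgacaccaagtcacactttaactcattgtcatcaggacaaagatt
Slc22a8, chr19:8592932-8593181, plus strand: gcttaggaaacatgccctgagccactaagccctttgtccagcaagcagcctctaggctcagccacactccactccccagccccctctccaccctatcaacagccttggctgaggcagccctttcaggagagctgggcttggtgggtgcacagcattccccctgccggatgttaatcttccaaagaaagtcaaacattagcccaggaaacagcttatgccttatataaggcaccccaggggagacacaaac
Slc13a4, chr6:35308127-35308376, minus strand: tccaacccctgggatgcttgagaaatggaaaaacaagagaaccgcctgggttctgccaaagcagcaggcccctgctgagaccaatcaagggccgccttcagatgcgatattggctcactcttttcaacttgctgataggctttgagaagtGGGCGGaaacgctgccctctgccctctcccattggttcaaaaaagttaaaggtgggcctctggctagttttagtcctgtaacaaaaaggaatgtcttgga
Slc7a14, chr3:31310320-31310569, minus strand: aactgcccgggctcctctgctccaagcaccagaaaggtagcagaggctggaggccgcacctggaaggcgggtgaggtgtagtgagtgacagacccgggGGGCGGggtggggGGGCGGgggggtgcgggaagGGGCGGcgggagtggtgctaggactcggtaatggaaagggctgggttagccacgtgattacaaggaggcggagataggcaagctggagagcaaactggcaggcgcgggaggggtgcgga
The windows of Slc22a6 and Slc22a8 held none of the 5 motifs. The window of Slc13a4 held 1 GC box, which starts 100 bases before the start, and that of Slc7a14 held 3. Of all 32851 windows of this length in the table, 32.7% held a GC box, 28.2% the xenobiotic response core, 10.2% the antioxidant response core, 12.4% a TATA box and 12% the ETS core. GC content was 48.4%, 55.2%, 50.4% and 66.8% in the order shown, where the median of all windows was 52.4%. The RefSeq start lay 43, 5 and 59 bases from the start of the counted transcript for Slc22a6, Slc13a4 and Slc7a14. For Slc22a8 it lay 1893 bases from it, so that window is not the one in front of the transcript counted. Promoters were found in the table for 70 of the 94 transporters, and Slc47a1, Slc7a2, Slc7a5, Slc2a3 and Slc16a7 are among those without an entry.

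**Figure D2:**
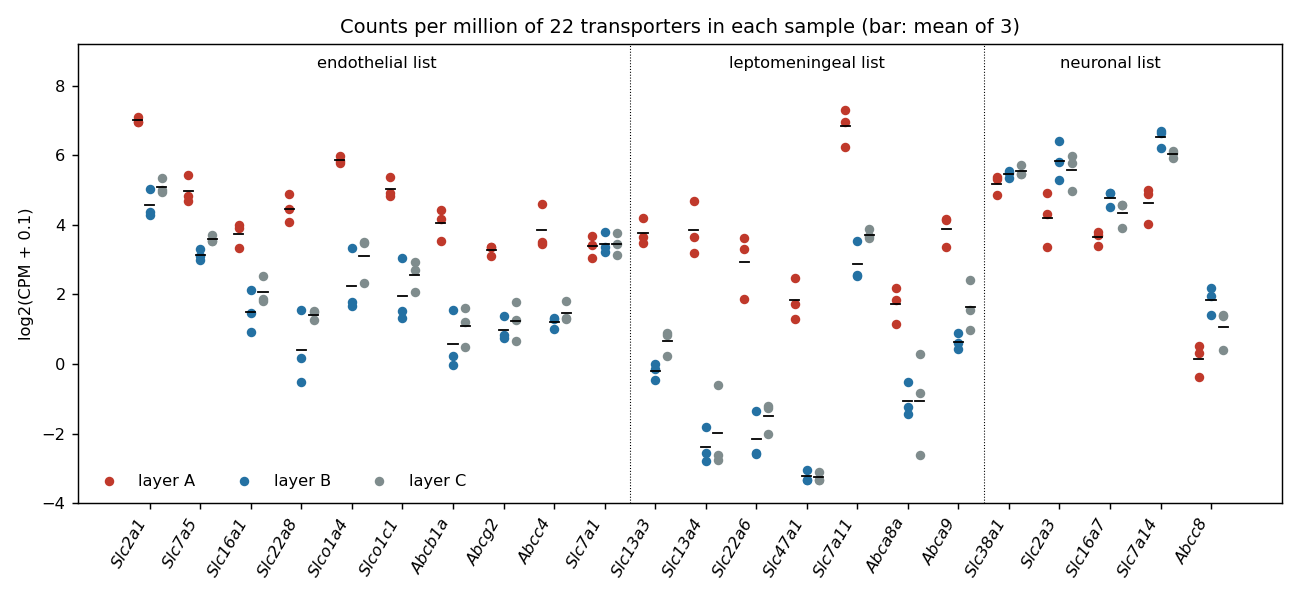
Level of 22 transporters in each of the 9 samples, as log2(CPM + 0.1) (y axis), with a point per sample coloured by layer and a bar at the mean of 3 samples. Of the 17 plotted genes of the endothelial and leptomeningeal lists, 16 stand higher in every layer A sample (red) than in any other sample. Slc7a1 of the endothelial list and Slc38a1 of the neuronal list overlap between layers A and B. Slc2a3, Slc16a7, Slc7a14 and Abcc8 stand lower in layer A than layer B. The neuronal list is shown in part. Slc38a2, which was higher in layer A in both comparisons, is not plotted, nor are Slc2a13 and Slc7a3, which did not pass.

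Marker genes of the barrier cell types moved with these transporters. Endothelial markers, 11 genes such as the junction proteins Cldn5 and Cdh5, summed to between 74 and 94.1 CPM in layer A, 7 and 14.3 CPM in layer B and 14.3 and 20.7 CPM in layer C. Of these, 10 were higher in layer A than layer B and 9 than in layer C, where 14.1% and 10.1% of protein-coding genes were. The 12 endothelial transporters summed to between 335 and 360 CPM in layer A, 51.1 and 87.9 CPM in layer B and 76.3 and 104 CPM in layer C. Markers of meningeal fibroblasts, among them Col1a1, Col1a2 and Dcn, summed to between 119 and 181 CPM in layer A and at most 23.3 CPM in any sample of the other layers, and the 9 tested were higher in layer A, of which Ogn and Col1a1 met the filter only with the help of layer A. Of the fibroblast sum, Pdgfra made up 59.6, 50.8 and 26.8 CPM in layer A and most in every sample of layers B and C. The leptomeningeal transporters, which share Slc22a8 with the endothelial list, summed to between 179 and 237 CPM in layer A and at most 23.5 CPM elsewhere. Slc7a11, which astrocytes also express, made up most of this sum in every sample but layer A replicate 3. The part of differing cell content in these results was not tested.

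Astrocyte markers moved as well, with all 11 higher in layer A and summed levels between 4970 and 10500 CPM in layer A, 687 and 1170 CPM in layer B and 1230 and 1690 CPM in layer C. Choroid plexus, another barrier that expresses Slc22a8, left little trace. Of its 8 markers 7 did not pass the filter, Otx2 had no count in any sample, and the sum lay between 0.382 and 2.88 CPM over all 9 samples. Neuronal markers went both ways. Of 6 glutamatergic markers, 2 were lower in layer A than layer B, Tbr1 at -1.06 ± 0.31 (SE, edgeR adjusted p = 0.0279) and Neurod2 at -1.62 ± 0.39 (SE, edgeR adjusted p = 0.0106), and 1 was higher, Camk2a at 1.87 ± 0.33 (SE, edgeR adjusted p = 0.0016). Over layer C, 3 were lower and 1 was higher, and Tbr1 did not pass. Of 5 GABAergic markers, 1 was higher than in layer B, Gad2 at 1.91 ± 0.45 (SE, edgeR adjusted p = 0.00941), and 1 was lower than in layer C. Of 7 oligodendrocyte markers, 1 was higher in layer A than layer B, and none passed over layer C. The background over layer B was 14.1% of protein-coding genes higher and 8.24% lower, and over layer C 10.1% higher and 5.93% lower.

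**Figure D3:**
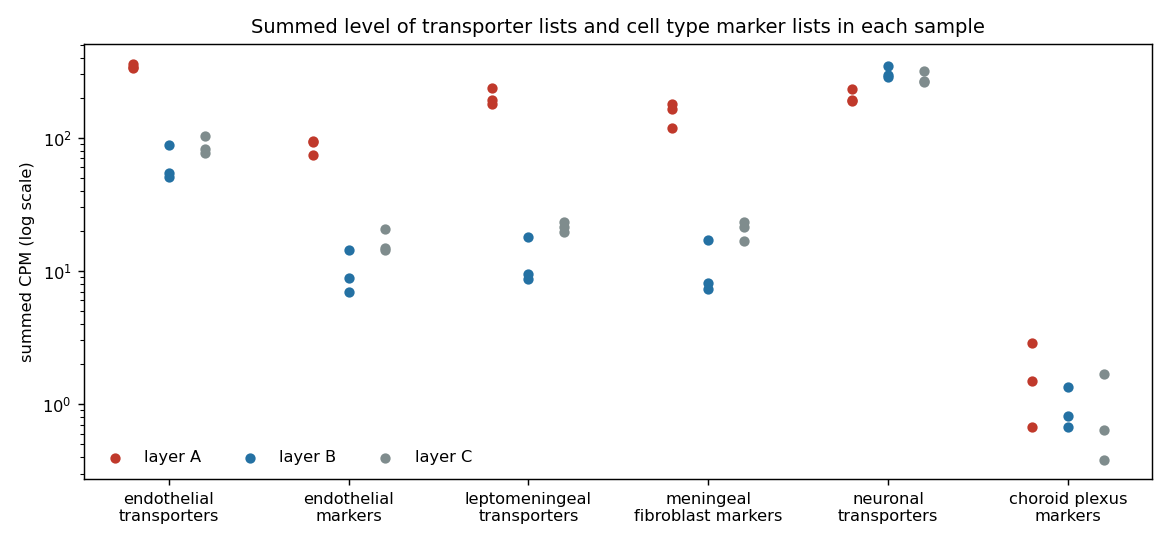
Summed CPM (y axis, log scale) of transporter lists and of cell type marker lists in each sample, coloured by layer. Endothelial transporters and endothelial markers are both highest in the 3 layer A samples, as are leptomeningeal transporters and meningeal fibroblast markers. Neuronal transporters are lowest there, and choroid plexus markers stay at or under 2.88 CPM. Neuronal markers are not plotted, and the summed glutamatergic markers, mostly Camk2a, were highest in layer A.

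Transporters of vessel walls and glia included genes higher in layer A. Abcc9 (SUR2), a regulatory subunit of the potassium channel of pericytes, was higher in layer A. Levels of Abcc9 were 20.9, 8.62 and 10.5 CPM in layer A, 0.674, 0.97 and 3.41 in layer B and 2.31, 3.76 and 2.79 in layer C. Layer A replicate 1 was the highest of its layer, and neither other layer overlapped with layer A. Its log2 fold change was 2.98 ± 0.57 (SE, edgeR adjusted p = 0.00261) over layer B, or 4.06 without layer B replicate 3, and the change over layer C, 2.18 ± 0.55 (SE, edgeR adjusted p = 0.0199), was lost without layer A replicate 1 (edgeR adjusted p = 0.105), layer C replicate 1 (0.112) or layer C replicate 3 (0.0616). Kcnj8, the pore subunit of that channel and not itself a transporter of these families, was higher by 3.69 ± 0.64 (SE, edgeR adjusted p = 0.00131) over layer B and 2.39 ± 0.59 (SE, edgeR adjusted p = 0.0182) over layer C. Markers of pericytes and smooth muscle summed to between 238 and 381 CPM in layer A and between 17.7 and 58.4 CPM in layer B.

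Among astrocyte transporters, Abca1, which loads cholesterol onto lipoproteins, was higher by 2.73 ± 0.36 (SE, edgeR adjusted p = 0.000273) over layer B and 1.85 ± 0.35 (SE, edgeR adjusted p = 0.005) over layer C. Slc38a3 (SNAT3), the system N carrier that releases glutamine, rose by 2.37 ± 0.38 (SE, edgeR adjusted p = 0.00083) and 2.52 ± 0.38 (SE, edgeR adjusted p = 0.00208). Slc7a10 (Asc-1), a carrier of small neutral amino acids including D-serine, did not pass at 0.66 ± 0.45 (SE, edgeR adjusted p = 0.371) over layer B. Levels of Slc7a10 were 4.66, 4.81 and 6.58 CPM in layer A, 1.86, 2.17 and 6.18 in layer B and 2.92, 3.64 and 3.79 in layer C. Layer B replicate 3 lay within the layer A range, and without this sample all 4 astrocyte transporters passed over layer B. These include Slco1c1, which is also on the endothelial list. Of the counted Slc7a10 bases, 19.3% overlap exons of Lrp3 on the opposite strand. The oligodendrocyte transporter Abca2, a lipid transporter of lysosomes, had a log2 fold change of -0.45 ± 0.36 (SE, edgeR adjusted p = 0.462) over layer B, with overlapping layers.

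Of 4 transporters known from microglia, Slco2b1 was higher by 3.11 ± 0.38 (SE, edgeR adjusted p = 0.000226) over layer B. Its change over layer C, 1.91 ± 0.36 (SE, edgeR adjusted p = 0.00547), was lost without layer C replicate 1 (edgeR adjusted p = 0.0534). Slc2a5 (GLUT5), a fructose carrier, was at 0.931, 2.27 and 1.2 CPM in layer A and 0.202, 0.139 and 0.562 CPM in layer B, a change of 2.26 ± 0.66 (SE, edgeR adjusted p = 0.0287) that was lost without layer A replicate 2 (0.133 by edgeR's adjusted p), layer B replicate 1 (0.109) or layer B replicate 2 (0.102) and was 3.13 without layer B replicate 3. Slc7a7 and Abcc3 did not pass, with log2 fold changes of 1.42 ± 0.49 (SE, edgeR adjusted p = 0.0638) and 1.93 ± 0.91 (SE, edgeR adjusted p = 0.176) over layer B. Microglial markers summed to between 117 and 180 CPM in layer A and between 18.2 and 53.4 CPM in layer B. Of 7 such markers 6 were higher in layer A than layer B, where 14.1% of protein-coding genes were.

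Of 8 tested transporters known from neurons, 4 were lower in layer A than layer B, 1 was higher and 3 did not pass. The median was -0.77 on the log2 scale, and the higher gene, here and over layer C, was Slc38a2. The count of 4 fell to 1 without layer B replicate 1 and to 2 without layer A replicate 1. Over layer C, 1 was lower, 1 was higher and 6 did not pass, with a median of -0.81, and without layer C replicate 1 none of the 8 passed. The background over layer B was 8.24% of protein-coding genes lower and 14.1% higher, and over layer C 5.93% lower and 10.1% higher. Slc7a14, a lysosomal relative of the cationic amino acid transporters, was the clearest of the lower neuronal genes. Levels of Slc7a14 were 16.3, 32 and 29.5 CPM in layer A, 100, 103 and 74.5 in layer B and 67.5, 69.1 and 60 in layer C. Layer A was below both other layers in every sample, and the change was -1.83 ± 0.31 (SE, edgeR adjusted p = 0.00122) over layer B and -1.34 ± 0.31 (SE, edgeR adjusted p = 0.0128) over layer C. The second call was lost without layer A replicate 1 (edgeR adjusted p = 0.0525) or layer C replicate 1 (0.0664). The gene lies on the minus strand of chromosome 3 from 31202858 to 31310378.

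Slc2a3 (GLUT3), the glucose carrier of neurons, was lower in layer A than layer B, opposite to Slc2a1, and did not pass over layer C. Levels of Slc2a3 were 10.1, 29.9 and 19.9 CPM in layer A, 85, 56.2 and 39 in layer B and 55.3, 31.1 and 63.2 in layer C. The layer A samples lay below all of layer B, and the change was -1.59 ± 0.41 (SE, edgeR adjusted p = 0.0156) over layer B, lost without layer A replicate 1 (edgeR adjusted p = 0.0725) or layer B replicate 1 (0.0917). The counted Slc2a3 transcript is annotated as a retained intron and has a second transcript within 10% of it. Slc16a7 (MCT2), by which neurons take up lactate, was at 13.1, 13.8 and 10.5 CPM in layer A and 30.4, 22.7 and 30.1 CPM in layer B. Its change of -1.16 ± 0.30 (SE, edgeR adjusted p = 0.0165) was lost without layer A replicate 3 (edgeR adjusted p = 0.0579) or layer B replicate 1 (0.0858), and over layer C it was -0.73 ± 0.30 (SE, edgeR adjusted p = 0.146). Abcc8 (SUR1), the channel subunit related to Abcc9, was lower by a log2 fold change of -1.75 ± 0.46 (SE, edgeR adjusted p = 0.0167) over layer B, a call lost without layer A replicate 1, layer B replicate 1 or layer B replicate 2 (edgeR adjusted p between 0.0581 and 0.073). Slc2a13, a proton-coupled inositol carrier, Slc7a3, a cationic amino acid carrier, and Slc38a1, a glutamine carrier, did not pass in either comparison, with log2 fold changes over layer B of -0.39 ± 0.34 (SE, edgeR adjusted p = 0.501), -0.07 ± 0.60 (SE, edgeR adjusted p = 0.957) and -0.26 ± 0.27 (SE, edgeR adjusted p = 0.584).

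Outside these lists, the cationic amino acid carriers gave further differences in both directions. Slc7a2 (CAT2) was higher in layer A. Levels of Slc7a2 were 136, 94.7 and 69 CPM in layer A, 4.6, 3.88 and 8.47 in layer B and 6.67, 12.3 and 11.8 in layer C. Layer A lay above all other samples, and the change was 4.14 ± 0.42 (SE, edgeR adjusted p = 0.000118) over layer B and 3.28 ± 0.40 (SE, edgeR adjusted p = 0.000982) over layer C. Slc7a4, a relative whose transported substrate is not well known, was at 1.52, 6.08 and 6.28 CPM in layer A and 19.1, 17.7 and 15.3 CPM in layer B, lower by a log2 fold change of -1.89 ± 0.46 (SE, edgeR adjusted p = 0.011). Over layer C it did not pass, at -1.25 ± 0.46 (SE, edgeR adjusted p = 0.0936). Among genes lower than in layer C, Slc16a14, of the monocarboxylate family, and Slco3a1, of the organic anion family, had log2 fold changes of -1.43 ± 0.38 (SE, edgeR adjusted p = 0.0252) and -1.19 ± 0.34 (SE, edgeR adjusted p = 0.0365). The Slc16a14 call was lost without any one of 5 samples, those of layer A and replicates 1 and 2 of layer C (edgeR adjusted p between 0.0563 and 0.113). The Slco3a1 call was lost without any one of 6 samples (edgeR adjusted p between 0.0544 and 0.148) and when scaled by non-mitochondrial totals (0.0561). Slco4c1 had -2.74 ± 0.77 (SE, edgeR adjusted p = 0.0313), where layer C replicate 2 at 4.59 CPM stood above replicates 1 and 3 at 0.859 and 0.792 CPM, and without it the value was -1.47 and the call was lost (edgeR adjusted p = 0.201), as it was without any one layer A sample (0.0803 to 0.116) or without layer C replicate 1 (0.0523). All 4 calls in this direction, Slc7a14 among them, were lost without layer A replicate 1 or without layer C replicate 1, and no transporter was called lower than layer C in either case.

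Neighbouring transporter genes shared a pattern at some loci and not at others. Slc13a3 and the glucose transporter gene Slc2a10 (GLUT10) lie 30.6 kb apart on chromosome 2, on opposite strands, and both were higher in layer A, Slc2a10 by 3.29 ± 0.65 (SE, edgeR adjusted p = 0.00306) over layer B, or 4.25 without layer B replicate 3, and by 2.62 ± 0.63 (SE, edgeR adjusted p = 0.0154) over layer C. The Slc2a10 call over layer C was lost without layer A replicate 1 (edgeR adjusted p = 0.0616), layer C replicate 1 (0.0723) or layer C replicate 2 (0.0503). On chromosome 11, the lipid transporter genes Abca8b, Abca8a, Abca9, Abca6 and Abca5 follow each other on the minus strand from 109932190 to 110337678. Abca9 was higher by 3.36 ± 0.44 (SE, edgeR adjusted p = 0.000273) over layer B and 2.22 ± 0.42 (SE, edgeR adjusted p = 0.00525) over layer C, and Abca8a by 3.04 ± 0.68 (SE, edgeR adjusted p = 0.00666) and 2.45 ± 0.66 (SE, edgeR adjusted p = 0.0259). The other 3 genes of the row did not pass. Abca6, 8.62 kb from Abca9, had log2 fold changes of 1.67 ± 0.67 (SE, edgeR adjusted p = 0.107) over layer B and 1.31 ± 0.67 (SE, edgeR adjusted p = 0.247) over layer C, in the direction of its neighbours. Levels of Abca8b were 5.5, 12.3 and 5.66 CPM in layer A, 9.25, 8.5 and 9.33 in layer B and 6.4, 12.1 and 6.54 in layer C. These layers overlapped, with a change of -0.21 ± 0.39 (SE, edgeR adjusted p = 0.775) for Abca8b and of -0.09 ± 0.30 (SE, edgeR adjusted p = 0.882) for Abca5 over layer B. The Abca8a call over layer C was lost without layer A replicate 1 or 2 or layer C replicate 1 or 2 (edgeR adjusted p between 0.0582 and 0.128), and the value was 3.46 without layer C replicate 3.

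On chromosome 5, Abcb1a lies 49.6 kb from Abcb1b, the second gene for P-glycoprotein in the mouse. Abcb1b was scarce, at 1.1, 0.2 and 0.449 CPM in layer A, and its log2 fold change was 1.55 ± 0.76 (SE, edgeR adjusted p = 0.192) over layer B and 1.44 ± 0.77 (SE, edgeR adjusted p = 0.276) over layer C. Next to it, Abcb4, a phospholipid transporter, had log2 fold changes of -0.46 ± 0.57 (SE, edgeR adjusted p = 0.655) and 0.82 ± 0.59 (SE, edgeR adjusted p = 0.451). Neither gene passed. The copies Abcb1a and Abcb1b, and likewise Abca8a and Abca8b, are similar enough in sequence that reads can fit both, so their split is uncertain. On chromosome 15, Slc38a1 and Slc38a2, the glutamine carriers SNAT1 and SNAT2, lie 44.5 kb apart. Levels of Slc38a2 were 75.1, 73.1 and 64.1 CPM in layer A, 39.9, 28.7 and 34.4 in layer B and 26.5, 32.3 and 31.3 in layer C. Slc38a2 was higher in layer A by 1.04 ± 0.27 (SE, edgeR adjusted p = 0.0146) over layer B and 1.24 ± 0.27 (SE, edgeR adjusted p = 0.01) over layer C, calls lost without layer B replicate 2 (edgeR adjusted p = 0.0658) and without layer C replicate 1 (0.0842). Slc38a1 was at 41.3, 40 and 29.1 CPM in layer A and 44.9, 40.3 and 46.5 CPM in layer B, with overlap. Neither gene of the pairs Slc7a8 with Slc22a17, Abca17 with Abca3, Slc16a11 with Slc16a13 and Slc7a6 with Slc7a6os passed in any comparison, nor did the 3 carnitine and cation carrier genes Slc22a5, Slc22a21 and Slc22a4.

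**Figure D4:**
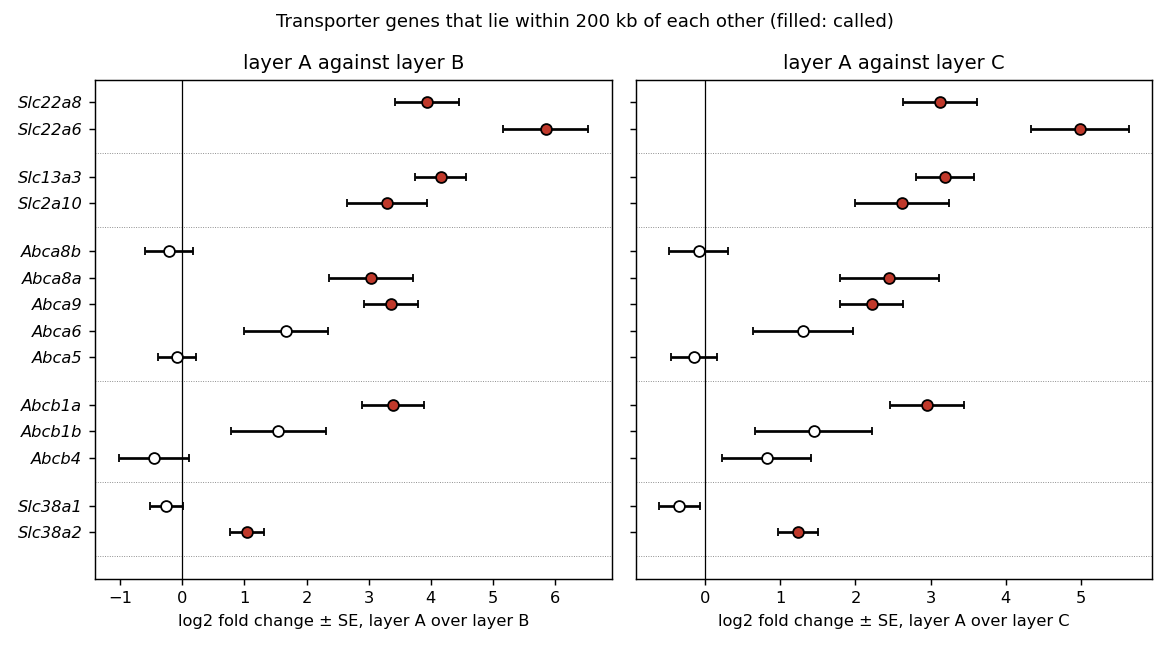
Log2 fold change with its SE (x axis) of transporter genes that lie within 200 kb of each other, grouped by locus (y axis), for layer A over layer B on the left and over layer C on the right. Filled points passed the test, and of these Slc22a6 met the filter only with the help of layer A. Both genes of the Slc22a8 and Slc13a3 loci are filled, whereas in the Abca and Abcb1 loci filled genes sit beside open ones, of which Abca8b and Abca5 lie near 0 and Abca6 and Abcb1b lie above it, at 1.67 and 1.55 over layer B.

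Between layers B and C the 5 transporters with the smallest p were Slco2a1, Slco2b1, Abca9, Slco5a1 and Slc13a3, and none passed after adjustment. Slco2a1, the prostaglandin transporter, separated layer B from layer C. Levels of Slco2a1 were 2.37, 0.668 and 2.44 CPM in layer A, 1.17, 1.62 and 0.312 in layer B and 0.147, 0.0638 and 0.298 in layer C. Every layer B sample was above every layer C sample, and the log2 fold change of layer B over layer C was 2.38 ± 0.72 (SE, unadjusted p = 0.00469). Layer B replicate 3 was the lowest of its layer, just above layer C. Layer A was above layer C, by 3.21 ± 0.74 (SE, edgeR adjusted p = 0.0129), a call lost without layer C replicate 1 (edgeR adjusted p = 0.0775) and at 3.94 without layer C replicate 3, and overlapped layer B. Slco5a1 was higher in layer B than in layer C by 1.29 ± 0.49 (SE, unadjusted p = 0.0189). The other 3 were lower in layer B, with log2 fold changes of -1.20 ± 0.36 (SE, unadjusted p = 0.00483) for Slco2b1, -1.15 ± 0.41 (SE, unadjusted p = 0.0145) for Abca9 and -0.96 ± 0.38 (SE, unadjusted p = 0.0218) for Slc13a3.

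Compared between genes per kilobase of transcript, the order of levels differed between layers. In layer A, Slc2a1 led at 39.6 CPM per kilobase, followed by Slc38a2 and Slco1a4, both at 15.2, and Slc22a17, an orphan organic ion carrier relative, at 14.5. In layer B, Slc22a17 led at 29.2 CPM per kilobase, followed by Slc38a1 at 13.8, Slc16a7 at 11.5 and Slc7a14 at 10.4, and Slc2a1 came sixth at 7.42. In layer C, Slc22a17 at 25.9 and Slc38a1 at 14.6 were followed by Slc2a1 at 10.6 CPM per kilobase. Slc22a17 itself varied widely within layers. Levels of Slc22a17 were 16.5, 34.9 and 48.1 CPM in layer A, 52.5, 55.7 and 92.8 in layer B and 53.4, 30.9 and 93.9 in layer C. It did not pass, with a log2 fold change of -1.01 ± 0.43 (SE, edgeR adjusted p = 0.132) over layer B.

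Of 5 tested partner subunits that such carriers and channels need at the membrane, Kcnj8 was higher and Slc3a1 lower in layer A in both comparisons, and 3 did not pass. Slc3a2, the heavy chain that binds Slc7a5 and Slc7a11, had a log2 fold change of 0.66 ± 0.30 (SE, edgeR adjusted p = 0.155) over layer B, with all layer A samples above the others. Bsg (basigin), the chaperone of Slc16a1, had 0.44 ± 0.32 (SE, edgeR adjusted p = 0.394), and Emb (embigin), of the same kind, had -0.57 ± 0.44 (SE, edgeR adjusted p = 0.44). Slc3a1, the heavy chain of the cystine carrier of kidney, was lower in layer A, with a log2 fold change of -1.28 ± 0.35 (SE, edgeR adjusted p = 0.0215) over layer B, but 26.5% of its counted bases overlap exons of Prepl on the opposite strand, and the libraries keep no strand. Among the 94 transporters, exons of other genes covered at least 10% of the counted transcript for 9, which were Abca3, Abcb6, Abcb10, Slc7a7, Slc7a10, Slc16a6, Slc16a9, Slc22a12 and Slco2b1.

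Other carriers and junction proteins of the barriers included genes higher in layer A. Of 19 further barrier carriers, 10 were higher in layer A than layer B and none was lower. Their median log2 fold change was 1.16, and over layer C, where 7 were higher, it was 0.85. Of these, Slc6a13 and Slc6a12, carriers of GABA and betaine found in the leptomeninges, met the filter only with the help of layer A, and for Slc6a12, with 26, 18 and 130 counts there and at most 7 in any other sample, the filter fixed the direction. Without them 8 of 17 were higher than in layer B, with a median of 0.86, and 5 than in layer C, with a median of 0.57. Mfsd2a, the endothelial carrier of omega-3 lipids, was at 2.15 ± 0.54 (SE, edgeR adjusted p = 0.0122) over layer B. Of 10 junction proteins, 7 were higher than in layer B and 6 than in layer C, with medians of 2.51 and 2.21. Cdh1 (E-cadherin), a junction protein of arachnoid barrier cells, was at 1.02, 0.735 and 1.99 CPM in layer A and at 0 in 5 of the 6 other samples, and it too met the filter through layer A alone. Without Cdh1, 6 and 5 of 9 were higher, with medians of 2.50 and 2.16. Of 8 nuclear receptors and sensors that act on transporter genes, 4 were higher than in layer B (Nr1h3, Rxra, Nfe2l2 and Ppara) and 2 than in layer C (Nfe2l2 and Ppara). The background for all these counts was 14.1% of protein-coding genes higher than in layer B and 10.1% higher than in layer C.

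The transporters not yet described include 8 that passed. Slc13a5, Slc16a6, Slc16a9, Slc16a12, Slc22a12, Slc38a11 and Slco4a1 were higher in layer A than layer B, and Slc38a6 was higher than in layer C, by 1.74 ± 0.48 (SE, edgeR adjusted p = 0.03). These 8 were named after their values were seen, to complete the count. Of them, Slc22a12, Slc38a11 and Slco4a1 met the filter only with the help of layer A. Slc13a5 and Slco4a1 were also higher than in layer C, where Slc22a12 and Slc38a11 did not pass. Of all tested Slc16 genes, 3 were higher in both comparisons, with Slc16a1 among them and Slc16a4 not. For Slc22a12, 30.6% of the counted bases overlap exons of the synaptic gene Nrxn2 on the opposite strand, and for Slc16a6, 24.9% overlap Amz2. The rest of the 94, those without a call, had log2 fold changes over layer B between -2.57 and 1.93.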

How the data were processed

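RNA was measured in 9 samples, 3 of each laser-captured layer, grouped by the lettered layers and replicate numbers of the labels. Per the study's methods, RNA was amplified before paired-end libraries that keep no strand were made, and Bowtie aligned the reads to mm10. The authors deposited raw, unnormalized counts for each Ensembl transcript. HTSeq 0.5.3 is named in the submitters' processing notes. The annotation release and the treatment of reads shared between transcripts are not given in the sources used here. Amplified reads without molecular identifiers are not independent molecules.

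Transcripts were joined to the GENCODE M21 annotation of GRCm38. Those reaching 10 counts in 3 or more samples (56416) were scaled by TMM and tested in one fit of all 9 samples with edgeR 4.0.16 (R 4.3.3) by its quasi-likelihood F-test, with Benjamini-Hochberg adjustment over all of them and a threshold of 0.05. CPM divide by the scaled totals. The SE of a log2 fold change is its size divided by the root of F. Fold changes are signed as layer A minus the other layer, or layer B minus layer C.

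The transporters, gene lists and naming rule were chosen with earlier results of these data known, so lists are given as counts and medians without a test. Named with values were all tested members of the lists by site, the 8 calls with the smallest p-values in either direction between layer A and each other layer, the 5 smallest between layers B and C, and members within 200 kb of another member. No samples differed by less than sampling noise. Whether replicate numbers pair the samples is not known, and replicate 3 was the deepest library of every layer. The fit was tested on simulated counts, where the limit set at first for both tools was exceeded on false calls by DESeq2, which is an alternative only, and was then kept for edgeR alone. Alternatives were other size factors, DESeq2 1.42.0, other filters, a replicate block, fewer samples, counts summed by gene, the highest transcript of each gene, no mitochondrial transcripts and each sample left out. Scaling by non-mitochondrial totals was added after seeing the data.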

Additional observations from a re-analysis of the deposited data

How the results depend on the processing

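Without any one sample, the transporters that passed numbered between 31 and 42 for layer A against layer B, between 16 and 43 for layer A against layer C and between 29 and 45 for any layer. Those higher in layer A numbered between 29 and 36 over layer B and between 16 and 36 over layer C, and those lower between 2 and 6 and between 0 and 7. The lowest value over layer C, 16, came without layer C replicate 1. A filter of 10 counts in all 9 samples kept 55 transporters, of which 25 passed between layers A and B, 21 of them higher in layer A, and 24 in any layer, since fewer genes were tested. DESeq2 called 8 lower in layer A over layer B, where edgeR called 5. Without a filter on low counts 7 were lower than in layer C, where 4 were with it. The cause of these last 2 changes was not tested. With the replicate number as a block, 40 transporters passed in the first comparison, 35 in the second, 0 for layer B against layer C and 35 in any layer. Correlations of same-numbered deviations from the layer means ran from -0.229 to 0.276. For replicate 3 they were positive in all 3 pairs of layers, at 0.218, 0.258 and 0.128. With 3 replicates these values cannot settle whether the numbers pair the samples. Between layers B and C no alternative called a transporter. The 65 named results followed under the alternatives were those that passed, with the smallest p-values between layers B and C added. Of their 1217 fold changes, none changed sign and 60 fell short of the threshold. Of these 60, 57 did so when 1 sample was left out and 3 under another scaling. Results chosen because they passed could hardly change sign, and named transporters that did not pass, such as Slc7a1, were not followed. Scaling by non-mitochondrial totals moved the median of all transcripts by just over 0.1 on the log2 scale in both comparisons with layer A, and 39 and 33 transporters passed. Transporters near 10 counts, such as Slc38a5, carry the widest errors.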
